A study of Homo sapiens with 18 samples.

Results

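The genes described here are the 8 cyclin-dependent kinase (CDK) inhibitor genes CDKN1A, CDKN1B, CDKN1C, CDKN2A, CDKN2B, CDKN2C, CDKN2D and CDKN3, taken by name as a gene family. All 8 were present in the count tables of 22136 genes (2 days) and 21276 genes (7 days) and in the FPKM tables of 26443 genes. RNA was sequenced from C4-2B, a castration-resistant human prostate cancer cell line that the labels call wild type, grown in medium with serum. Of the 18 libraries, 3 were from cells given DMSO vehicle and 3 from cells given 0.1 μM of VIC-1911, an inhibitor of the mitotic kinase AURKA, for 2 days. The other 12 came from 7 days of treatment, with 3 libraries each of vehicle, 0.1 μM of VIC-1911, 1 μM of the PARP inhibitor olaparib, and both drugs at these doses (the combination). All groups share the single cell line, and the sources used here do not tie the 3 libraries of a group to separate cultures, so the p-values measure the spread between libraries.

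CDK inhibitors hold the cell cycle in check. The CIP/KIP proteins, p21 (CDKN1A), p27 (CDKN1B) and p57 (CDKN1C), bind complexes of cyclins with CDK2 and CDK1. The INK4 proteins, p16 (CDKN2A), p15 (CDKN2B), p18 (CDKN2C) and p19 (CDKN2D), bind CDK4 and CDK6 and keep cyclin D from them, which leaves RB unphosphorylated and E2F silent. CDKN3 is a phosphatase that removes the activating phosphate from CDK2, and its RNA is made mostly in cycling cells. CDKN1A is the best known transcriptional target of p53 after DNA damage, whereas p27 is set mainly by turnover of the protein. CDKN2A also encodes the p53 activator ARF, and the counts of the gene do not separate its products.

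CDKN1A lies at chr6:36676463-36687332, CDKN1B at chr12:12717368-12722369 and CDKN1C at chr11:2883218-2885775 of GRCh38. CDKN2A (chr9:21967752-21995324) and CDKN2B (chr9:22002903-22009313) are neighbors. CDKN2C lies at chr1:50960745-50974634, CDKN2D at chr19:10566460-10568979 and CDKN3 at chr14:54397007-54420218. The strand setting of the authors' counting is not given in the sources used here, so members with an annotated gene on the other strand are uncertain. This holds for CDKN1A, whose exons share 146 bases with those of the long noncoding RNA DINOL, for CDKN2A, which shares 593 exonic bases with CDKN2B-AS1, and for CDKN2C, which shares 617 with an unnamed long noncoding RNA. CDKN2B and CDKN1B also have a gene on the other strand (CDKN2B-AS1 and GPR19), with 0 shared exonic bases. CDKN2B-AS1 had between 2 and 12 counts a library after 2 days and between 3 and 25 after 7 days.

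The sequences before transcript starts of CDKN1A and CDKN3 are shown because these members had the largest changes against vehicle. The consensus of p53 (20 bases, both cores intact and at most 2 other mismatches) was sought in the 2500 bases before RefSeq transcript starts. For CDKN1A only the start at position 36678714 was used. A match was found in the CDKN1A window and in no window of the members CDKN1B, CDKN2A, CDKN2B, CDKN2C, CDKN2D and CDKN3. Among all such windows, 477 of 35116 (1.36%) held a match. The match in the CDKN1A window is at chr6:36676449-36676468 on the plus strand, at −2265 from the start at position 36678714, and has 2 mismatches. It spans position 36676463, where the annotated gene begins, so it is upstream of the start used and not of the whole gene. The cores of the match are in capitals.
CDKN1A p53 match: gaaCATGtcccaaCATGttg
The 250 bases before the transcript starts of CDKN1A (chr6:36678464-36678713, plus strand) and CDKN3 (chr14:54396757-54397006, plus strand) follow from RefSeq, with the motifs found in capitals. In CDKN1A these are 4 GC boxes (GGGCGG, the last 2 of which overlap by 1 base), a motif found on either strand in 42.6% of 35116 promoters. In CDKN3 they are CCAAT boxes (CCAAT, 32% of promoters) at −208 and, on the minus strand, at −83, and a cell cycle homology region element (TTTGAA, 13.3% of promoters) on the minus strand at −170. No other motifs overlap in these windows.
CDKN1A: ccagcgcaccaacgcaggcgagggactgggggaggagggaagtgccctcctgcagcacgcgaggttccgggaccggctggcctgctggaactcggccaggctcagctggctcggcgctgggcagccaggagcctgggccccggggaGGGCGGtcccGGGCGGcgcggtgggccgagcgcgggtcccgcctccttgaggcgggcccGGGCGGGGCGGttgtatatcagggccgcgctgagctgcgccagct
CDKN3: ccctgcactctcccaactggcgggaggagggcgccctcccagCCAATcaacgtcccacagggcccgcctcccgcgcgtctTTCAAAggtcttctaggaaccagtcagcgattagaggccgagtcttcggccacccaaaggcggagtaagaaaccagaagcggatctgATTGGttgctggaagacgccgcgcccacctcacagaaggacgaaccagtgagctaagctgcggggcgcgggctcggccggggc
The E2F motifs TTTCGCGC, TTTGGCGC and TTTCCCGC, held together by 2.32% of promoters, and TATAAA (10.7%) were not among the letters of any member's window (CDKN1C had no window), and a match is a description of the sequence only.

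Between 3245273 and 7184420 reads a library were counted on genes after 2 days, and between 4967931 and 19684208 after 7 days, with olaparib replicate 1 the shallowest of the latter. All 10 prostate luminal markers were at 1 FPKM or more in every group, with summed levels between 2527 and 4526 FPKM, whereas 11 basal, neuroendocrine, stromal, leukocyte and endothelial markers summed to between 1.92 and 5.64 FPKM. The olaparib and combination libraries carried library numbers apart from those of vehicle and VIC-1911 at 7 days. For olaparib against vehicle, combination against vehicle, combination against VIC-1911 and olaparib against VIC-1911, drug and library-number block therefore cannot be told apart. In bulk RNA, a change in the number of cells that express a gene and a change in RNA per cell cannot be told apart either.

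The members differed widely in level, in FPKM (fragments per kilobase, scaled by library size), a unit that allows genes of different length to be compared. In vehicle after 2 days CDKN1A was highest (55.2 ± 0.997 FPKM, SD, n = 3), then CDKN3 (46.6 ± 1.36), CDKN1B (28.4 ± 1.83), CDKN2C (12.4 ± 0.835), CDKN2A (12 ± 0.692), CDKN2D (8.69 ± 0.747), CDKN1C (1.37 ± 0.168) and CDKN2B (0.179 ± 0.0754). CDKN2C and CDKN2A overlapped in that order, and the libraries of all other neighbors were apart. In vehicle after 7 days the order was CDKN1B (27.9 ± 0.781 FPKM), CDKN1A (25.9 ± 2.23), CDKN3 (11.5 ± 1.77), CDKN2A (10.5 ± 1.48), CDKN2C (6.38 ± 1.10), CDKN2D (5.62 ± 0.749), CDKN1C (1.03 ± 0.220) and CDKN2B (0.375 ± 0.216). Here CDKN1B and CDKN1A, CDKN3 and CDKN2A, and CDKN2C and CDKN2D overlapped. The tables of 2 and 7 days were made separately, so these levels are given side by side with no test between them.

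**Figure D1:**
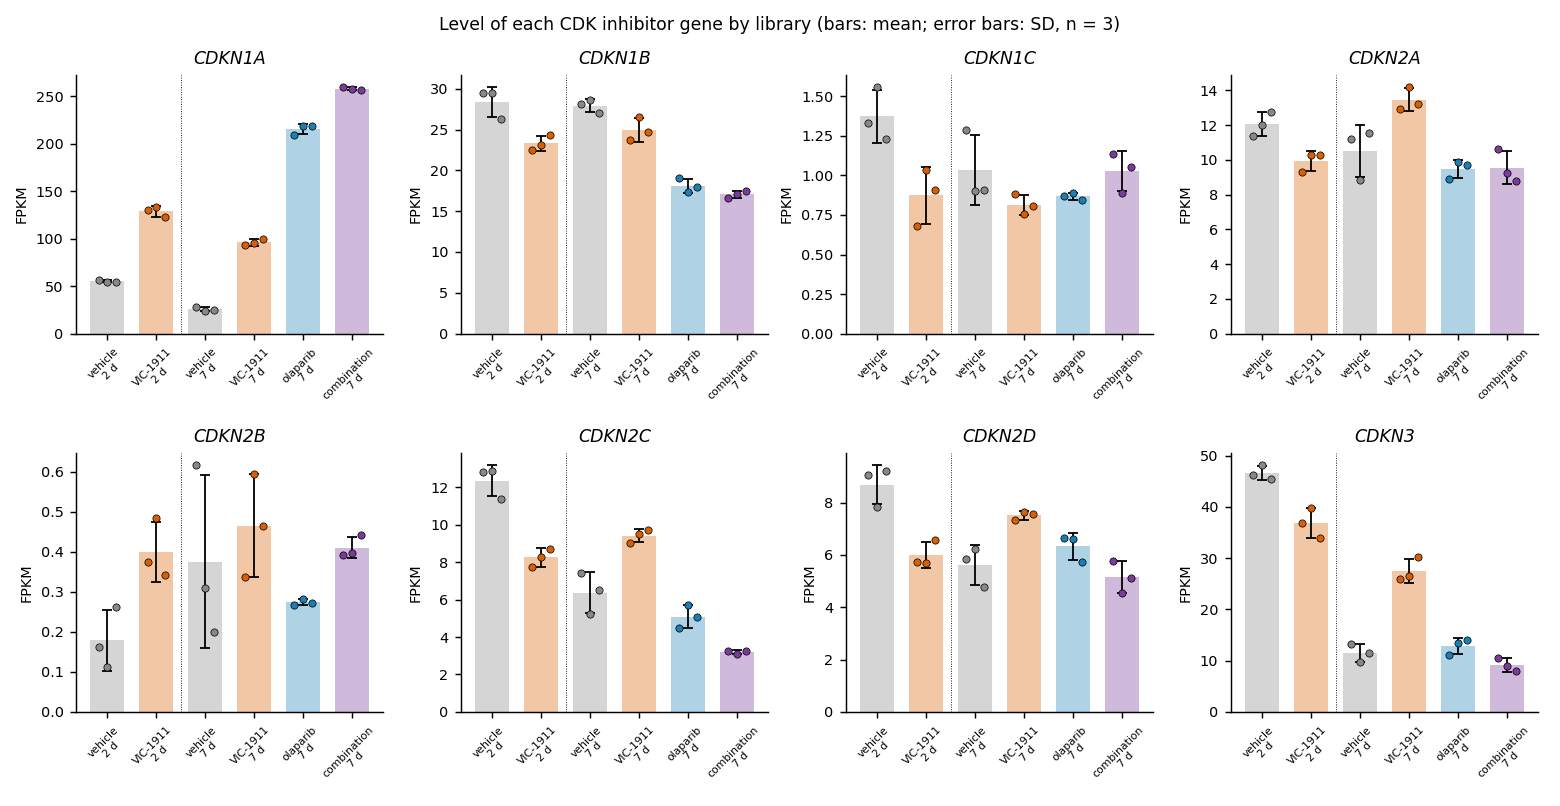
Level of each CDK inhibitor gene in FPKM (y axis, linear, from 0) in the 6 groups (x axis), with points for the 3 libraries, bars for the mean and error bars for the SD. CDKN1A rose from 25.9 to 96.1, 216 and 258 FPKM across the 7-day groups, whereas CDKN1B fell to 18.1 and 17.1 FPKM under olaparib and the combination.

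CDKN1A, which encodes p21, was higher under every treatment, and more so with olaparib than with VIC-1911. After 2 days the vehicle libraries had 56.3, 54.5 and 54.7 FPKM of CDKN1A and the VIC-1911–treated libraries 130, 134 and 123 FPKM. The groups were far apart. Counts of the gene were fitted by edgeR's quasi-likelihood test, adjusted over all genes, and CDKN1A rose 2.34-fold (95% confidence interval 2.18 to 2.51; adjusted p = 8.47e-21). It had the lowest p of 12241 genes tested, of which 14.7% were called at an adjusted p under 0.05. After 7 days, CDKN1A was at 28.5, 24.3 and 25.1 FPKM in vehicle, at 93.0, 95.5 and 99.8 FPKM with VIC-1911, at 210, 219 and 219 FPKM with olaparib and at 260, 258 and 257 FPKM with the combination. No library of one of these groups overlapped with another group. The fold changes against vehicle were 3.58 (3.34 to 3.85; adjusted p = 1.23e-22), 8.21 (7.64 to 8.83; adjusted p = 6.00e-28) and 9.92 (9.22 to 10.7; adjusted p = 8.30e-29), and these comparisons share the vehicle libraries. By mean level, CDKN1A stood at rank 2257 of the genes above 0 FPKM in vehicle, at rank 536 with VIC-1911, at rank 156 with olaparib and at rank 128 with the combination.

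CDKN1B, the gene of p27, moved the other way. After 2 days it was at 29.5, 29.4 and 26.3 FPKM in vehicle and at 22.5, 23.1 and 24.3 FPKM with VIC-1911. In the 7-day groups CDKN1B was at 28.1, 28.6 and 27.1 FPKM in vehicle, at 23.7, 26.6 and 24.7 FPKM with VIC-1911, at 19.1, 17.3 and 17.9 FPKM with olaparib and at 16.6, 17.1 and 17.5 FPKM with the combination. Each treated group lay wholly below its vehicle, and only the olaparib and combination groups overlapped. The log2 fold changes of CDKN1B by edgeR were −0.25 (SE 0.0669, adjusted p = 0.00710) and −0.21 (SE 0.0557, adjusted p = 0.00234) for VIC-1911 after 2 and 7 days, −0.66 (SE 0.0579, adjusted p = 7.05e-11) for olaparib and −0.72 (SE 0.0568, adjusted p = 6.03e-12) for the combination. All were under the fold limits of 1.5 after 2 days and 2 after 7 days that the study used for its own gene lists, and with DESeq2 the change after 2 days was not called (adjusted p = 0.0569).

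CDKN1C, the gene of p57, stayed low, between 0.681 and 1.56 FPKM in any library and with 21 to 101 counts. It fell with VIC-1911 after 2 days (log2 −0.70, SE 0.235, adjusted p = 0.0369) and after 7 days (log2 −0.42, SE 0.176, adjusted p = 0.0487), while the values were −0.29 (adjusted p = 0.159) for olaparib and −0.02 (adjusted p = 0.946) for the combination. Both calls were fragile. The 2-day call was lost without vehicle replicate 1, 2 or 3 or VIC-1911 replicate 1 or 3 (adjusted p between 0.0513 and 0.167), and the 7-day call without vehicle replicate 1 or VIC-1911 replicate 1, 2 or 3 (0.0530 to 0.347). DESeq2 called neither (adjusted p = 0.195 and 0.111).

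Among the INK4 genes, CDKN2C, the gene of p18, had the lowest p in each comparison with vehicle, and its direction differed between treatments. After 2 days its libraries were at 12.8, 12.9 and 11.4 FPKM in vehicle and at 7.74, 8.31 and 8.73 FPKM with VIC-1911, a fall by 0.66 on the log2 scale (SE 0.101, adjusted p = 7.87e-06). In the 7-day groups CDKN2C was at 7.43, 5.23 and 6.50 FPKM in vehicle, at 9.03, 9.49 and 9.72 FPKM with VIC-1911, at 4.50, 5.72 and 5.05 FPKM with olaparib and at 3.26, 3.09 and 3.27 FPKM with the combination. The VIC-1911 libraries lay wholly above vehicle and the combination libraries wholly below it, whereas olaparib overlapped with vehicle. CDKN2C rose with VIC-1911 (log2 0.53, SE 0.0984, adjusted p = 3.85e-05) and fell with olaparib (log2 −0.30, SE 0.106, adjusted p = 0.0203) and with the combination (log2 −0.98, SE 0.112, adjusted p = 1.25e-08). The olaparib call was lost without vehicle replicate 1 (log2 −0.15, adjusted p = 0.251), olaparib replicate 1 (log2 −0.26, adjusted p = 0.0558) or olaparib replicate 3 (log2 −0.27, adjusted p = 0.0871).

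CDKN2A and CDKN2D moved less. CDKN2A was at 12 ± 0.692 FPKM in vehicle and 9.94 ± 0.578 with VIC-1911 after 2 days, which was not called (log2 −0.26, adjusted p = 0.0673) but was with upper-quartile scaling (adjusted p = 0.0468) and by limma on log2(FPKM + 0.1) (adjusted p = 0.0331) or log2(FPKM + 1) (adjusted p = 0.0349). After 7 days it rose with VIC-1911, from 11.2, 8.82 and 11.6 FPKM to 12.9, 14.2 and 13.2 FPKM (log2 0.34, SE 0.0879, adjusted p = 0.00183), and was at 9.48 ± 0.515 FPKM with olaparib (log2 −0.12, adjusted p = 0.273) and 9.55 ± 0.949 FPKM with the combination (log2 −0.11, adjusted p = 0.308). Vehicle replicate 2, the lowest of its group, decided these calls. Without it the log2 change with VIC-1911 was 0.19 (adjusted p = 0.0833), and those with olaparib and the combination were −0.27 (adjusted p = 0.0167) and −0.25 (adjusted p = 0.0189). CDKN2D, the gene of p19, rose after 7 days of VIC-1911 from 5.84, 6.22 and 4.78 FPKM to 7.33, 7.65 and 7.57 FPKM (log2 0.34, SE 0.115, adjusted p = 0.0148), a call that was lost without vehicle replicate 3 (log2 0.26, adjusted p = 0.0680). With olaparib and the combination CDKN2D was at 6.33 ± 0.512 and 5.15 ± 0.606 FPKM (adjusted p = 0.533 and 0.277). After 2 days of VIC-1911 it was at 6 ± 0.5 FPKM against 8.69 ± 0.747 in vehicle, which was not called on the counts (log2 −0.38, adjusted p = 0.0966) but was by limma on log2(FPKM + 0.1) (−0.53, adjusted p = 0.00553) and log2(FPKM + 1) (−0.47, adjusted p = 0.00611), and on the counts without vehicle replicate 2 (adjusted p = 0.0457).

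CDKN2B, the gene of p15, was near the limit of detection. It had 2, 3 and 7 counts in vehicle and 13, 13 and 11 counts with VIC-1911 after 2 days, so that it entered the test only through the treated libraries, and its log2 change was 0.97 (SE 0.451, adjusted p = 0.150; 0.0471 by limma on log2(FPKM + 0.1)). After 7 days it had between 7 and 47 counts a library and 0.199 to 0.617 FPKM. No change against vehicle was called (adjusted p = 0.605, 0.130 and 0.949 for VIC-1911, olaparib and the combination), and without vehicle replicate 3 the olaparib value was called (log2 −0.74, adjusted p = 0.0440). The interval with VIC-1911 after 7 days reached from 0.761-fold to 1.70-fold, so changes within it were not detectable at this depth.

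CDKN3 rose with VIC-1911 after 7 days and had fallen slightly after 2 days. After 2 days its libraries were at 46.2, 48.1 and 45.5 FPKM in vehicle and 36.9, 39.7 and 33.9 FPKM with VIC-1911 (log2 −0.33, SE 0.0818, adjusted p = 0.00407; not called by DESeq2, adjusted p = 0.0503). After 7 days CDKN3 was at 13.3, 9.79 and 11.4 FPKM in vehicle, at 25.9, 26.5 and 30.2 FPKM with VIC-1911, at 11.1, 13.5 and 14 FPKM with olaparib and at 10.5, 8.90 and 7.90 FPKM with the combination. The VIC-1911 libraries lay above all others. Their rise was 2.34-fold (2.01 to 2.73; adjusted p = 8.95e-11). With olaparib the log2 change of CDKN3 was 0.20 (SE 0.119, adjusted p = 0.161; without vehicle replicate 1, 0.33 and adjusted p = 0.0344), and with the combination CDKN3 fell (log2 −0.33, SE 0.124, adjusted p = 0.0261). The last call was lost without vehicle replicate 1, combination replicate 2 or combination replicate 3 (log2 −0.19, −0.31 and −0.23; adjusted p = 0.232, 0.0539 and 0.157) and without scaling beyond library size (adjusted p = 0.0553).

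G2 and mitosis genes were measured beside CDKN3. The summed level of 25 such genes was 868 ± 16.6 FPKM in vehicle and 794 ± 13 with VIC-1911 after 2 days. At 7 days the sum was 221 ± 50.9 FPKM in vehicle (190 to 280), 677 ± 19 with VIC-1911, 338 ± 32 with olaparib and 237 ± 10.3 with the combination. The sum was thus highest at 7 days with VIC-1911, as CDKN3 was. With the combination the sum lay within the range of the vehicle libraries. The CDKN3 libraries of the combination (7.90 to 10.5 FPKM) overlapped with those of vehicle (9.79 to 13.3 FPKM). By the test on the counts, CDKN3 was called lower there, and of the 25 genes 5 were called higher and 6 lower. The low level in the 7-day vehicle libraries is the base of every 7-day fold change of these genes and of CDKN3, and its part in the rise of CDKN3 was not tested. CDKN1A was also lower in vehicle at 7 days (25.9 FPKM) than at 2 days (55.2 FPKM).

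Across the family, CDKN1A was the one member called higher in every comparison with vehicle. After 2 days of VIC-1911, 1 member was called higher and 4 lower, where 7.5% and 7.19% of all genes were (918 and 880 genes, but 624 and 564 without VIC-1911 replicate 1). After 7 days of VIC-1911, 5 members were called higher and 2 lower, where 26.6% and 25.8% of all genes were. Olaparib gave 1 higher and 2 lower (all genes 28.1% and 25.9%), and the combination 1 higher and 3 lower (28.6% and 28%). In all, 52.4%, 54% and 56.6% of genes were called in the 7-day comparisons, and the 3 and 4 members called with olaparib and the combination were no larger a share than these. Scaled counts of the treated and vehicle libraries did not overlap for 7 members after 2 days (30.6% of all genes), leaving aside CDKN2B, which passed the filter only through its treated libraries, and for 7, 3 and 3 members after 7 days of VIC-1911, olaparib and the combination (58.8%, 58.8% and 59.4% of all genes). The median log2 change of the members was −0.30 after 2 days of VIC-1911, and 0.34, −0.21 and −0.13 after 7 days of VIC-1911, olaparib and the combination, with medians of all genes between −0.01 and 0.01. With the fold limits, CDKN1A was called higher in each comparison, CDKN3 with VIC-1911 after 7 days, and CDKN1C and CDKN2C lower with VIC-1911 after 2 days. The CDKN1C call was fragile, as given above, and DESeq2 did not make it (adjusted p = 0.195). Genes called higher within those limits were 0.825% of all genes after 2 days and 3.46%, 3.63% and 4.55% after 7 days, and 1.33% were called lower after 2 days.

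**Figure D2:**
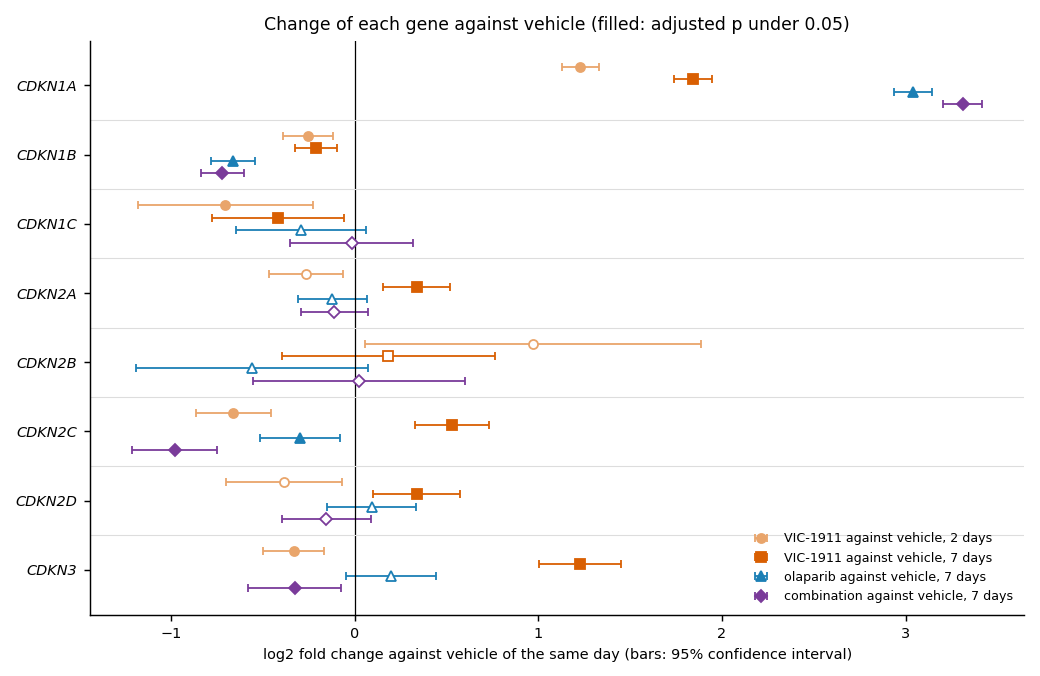
Log2 fold change of each gene against vehicle of the same day (x axis) with its 95% confidence interval, for VIC-1911 after 2 days and VIC-1911, olaparib and the combination after 7 days, filled where the adjusted p was under 0.05. CDKN1A is at 1.23, 1.84, 3.04 and 3.31, whereas CDKN2C and CDKN3 lie on opposite sides of 0 for VIC-1911 at 7 days and the combination.

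The combination was then set against each single drug. Against VIC-1911, CDKN1A rose 2.77-fold (2.59 to 2.95; adjusted p = 6.93e-20), the lowest p of 14409 genes. CDKN3 (log2 −1.55, adjusted p = 1.58e-12), CDKN2C (log2 −1.51, adjusted p = 1.59e-12), CDKN1B (log2 −0.51, adjusted p = 2.17e-08), CDKN2D (log2 −0.49, adjusted p = 8.34e-04) and CDKN2A (log2 −0.45, adjusted p = 1.09e-04) fell, so 5 members were lower where 22.2% of all genes were, and 1 higher where 20.7% were (42.9% in all). Between these groups 7 members did not overlap, where 50.2% of all genes did not. CDKN1C was at log2 0.40 (adjusted p = 0.0606) and CDKN2B at −0.16 (adjusted p = 0.674). The CDKN1C value was called without combination replicate 2 (adjusted p = 0.0360), with upper-quartile scaling (0.0390) and without scaling beyond library size (0.0440). Against olaparib, CDKN1A rose 1.21-fold (1.13 to 1.29; adjusted p = 9.94e-05), and CDKN2C (log2 −0.68, adjusted p = 1.31e-04) and CDKN3 (log2 −0.52, adjusted p = 0.00360) fell, where 4.55% of all genes were called higher and 6.95% lower (11.5% in all). These 655 and 1002 genes were 383 and 660 without olaparib replicate 2, 334 and 669 without olaparib replicate 3, and 350 and 651 without combination replicate 3. Between these groups 5 members did not overlap, these 3 among them, where 27.5% of all genes did not. CDKN1B differed by −0.06 on the log2 scale (−0.18 to 0.06; adjusted p = 0.608). For olaparib directly against VIC-1911, CDKN1A was higher (2.29-fold, adjusted p = 2.15e-17), and CDKN3 (log2 −1.03), CDKN2C (−0.83), CDKN2A (−0.46) and CDKN1B (−0.45) were lower, with adjusted p of 2.78e-04 or less, where 11.1% of all genes were called higher and 12.3% lower (23.4% in all), and 7 members did not overlap (39.6% of all genes). CDKN2B was not called there (adjusted p = 0.0739). It was called without VIC-1911 replicate 1 (adjusted p = 0.0485), with no count filter (0.0454) and with only the compared groups fitted (0.0395).

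On the log2 scale, the drugs together changed CDKN1A less than the sum of their single changes. The single log2 changes of CDKN1A added to 4.88, and the combination gave 3.31, a difference of −1.57 (SE 0.0671, adjusted p = 1.63e-17). This interaction sets what VIC-1911 added to olaparib against what it added to vehicle, and does not cross the library-number blocks. The interaction of CDKN3 was −1.75 (SE 0.162, adjusted p = 4.19e-10), and that of CDKN2C was −1.22 (SE 0.151, adjusted p = 1.18e-07). For both, the rise with VIC-1911 over vehicle became a fall with VIC-1911 over olaparib. Smaller interactions were called for CDKN2D (−0.58, adjusted p = 0.00455), CDKN2A (−0.33, adjusted p = 0.0369) and CDKN1C (0.69, adjusted p = 0.0219), and not for CDKN1B (0.15, −0.02 to 0.32, adjusted p = 0.135) or CDKN2B (0.40, adjusted p = 0.460). The interaction was called positive for 21% and negative for 22.9% of all genes (44% in all). It was called negative for all 25 G2 and mitosis genes (median −2.06). Of the 34 p53 target genes tested, listed below, 18 were called negative and 6 positive. The call of CDKN1C was lost without vehicle replicate 1, olaparib replicate 3 or combination replicate 1 (adjusted p = 0.107, 0.0534 and 0.0527), and that of CDKN2A without vehicle replicate 2, VIC-1911 replicate 2, olaparib replicate 2 or 3, or combination replicate 2 or 3 (0.0596 to 0.253). DESeq2 called neither CDKN1C nor CDKN2A (adjusted p = 0.0613 and 0.0879), nor did limma at either pseudocount. With upper-quartile scaling the call of CDKN2A was lost as well (edgeR, adjusted p = 0.0601).

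**Figure D3:**
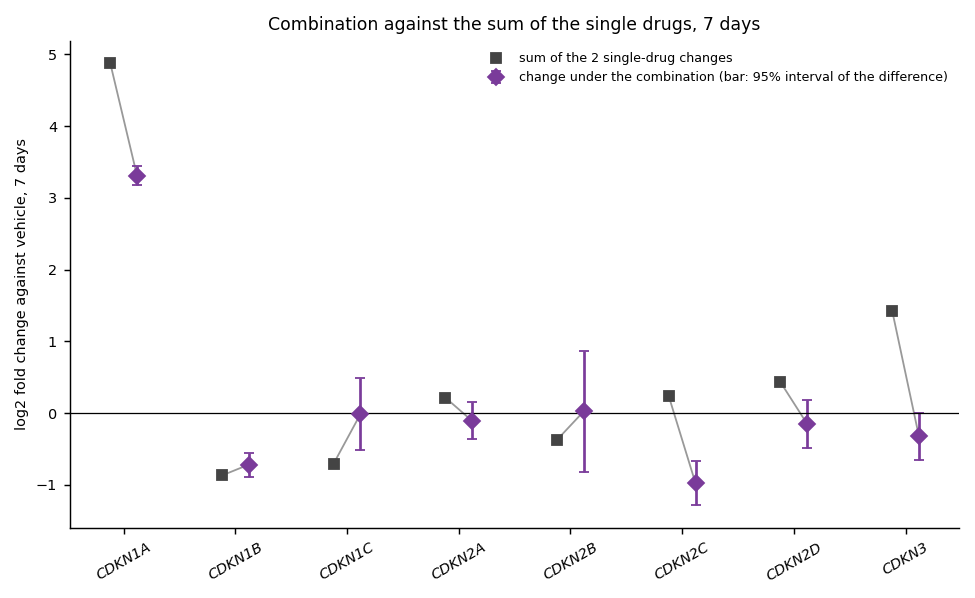
For each gene, the sum of the log2 fold changes with VIC-1911 and with olaparib (squares) and the log2 fold change with the combination (diamonds, with the 95% confidence interval of the difference), all against vehicle after 7 days. CDKN1A is at 4.88 and 3.31, and CDKN3 and CDKN2C lie above 0 for the sum and below 0 for the combination.

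The change with VIC-1911 differed between 7 and 2 days for 5 members. Its log2 value at 7 days less that at 2 days was 0.60 for CDKN1A (SE 0.0744, adjusted p = 9.02e-09), 1.55 for CDKN3 (SE 0.132, adjusted p = 1.98e-13), 1.18 for CDKN2C (SE 0.145, adjusted p = 7.03e-09), 0.71 for CDKN2D (SE 0.196, adjusted p = 0.00450) and 0.59 for CDKN2A (SE 0.136, adjusted p = 6.62e-04). Such differences were called positive for 14.6% and negative for 14.2% of all genes (28.8% in all). For CDKN1B no difference was called (0.03, −0.14 to 0.21, adjusted p = 0.840). CDKN1C (0.27, −0.34 to 0.89) and CDKN2B (−0.81, −2.03 to 0.40) had wide intervals. In mean FPKM, CDKN1A was lower at 7 than at 2 days in vehicle (25.9 against 55.2) and with VIC-1911 (96.1 against 129). CDKN3 was likewise lower in both (11.5 against 46.6 and 27.6 against 36.8). CDKN2C, CDKN2D and CDKN2A were lower in vehicle (6.38, 5.62 and 10.5 against 12.4, 8.69 and 12). With VIC-1911 these 3 were higher (9.41, 7.52 and 13.4 against 8.26, 6 and 9.94). The part of the vehicle level in these differences was not tested.

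The make-up of CDK inhibitor RNA shifted to CDKN1A. Its share of the summed FPKM of the 8 genes was 33.5% ± 0.645 in vehicle and 60.1% ± 0.988 with VIC-1911 after 2 days (SD, n = 3). At 7 days this share was 29% ± 0.499 in vehicle, 53.3% ± 0.562 with VIC-1911, 80.3% ± 0.0751 with olaparib and 85.0% ± 0.583 with the combination. The 4 INK4 genes together were at 22.9 ± 2.24, 30.8 ± 1.16, 21.2 ± 1.13 and 18.3 ± 1.49 FPKM in these 4 groups. CDKs changed too, so CDKN1A was also set against the summed FPKM of CDK1, CDK2, CDK4 and CDK6, the kinases of the cell cycle. This ratio was 0.340 ± 0.00887 and 0.895 ± 0.0514 after 2 days in vehicle and with VIC-1911. After 7 days it was 0.411 ± 0.00654, 0.808 ± 0.00736, 1.82 ± 0.0911 and 2.6 ± 0.0629 in vehicle, VIC-1911, olaparib and combination. No libraries of different 7-day groups overlapped in the ratio.

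**Figure D4:**
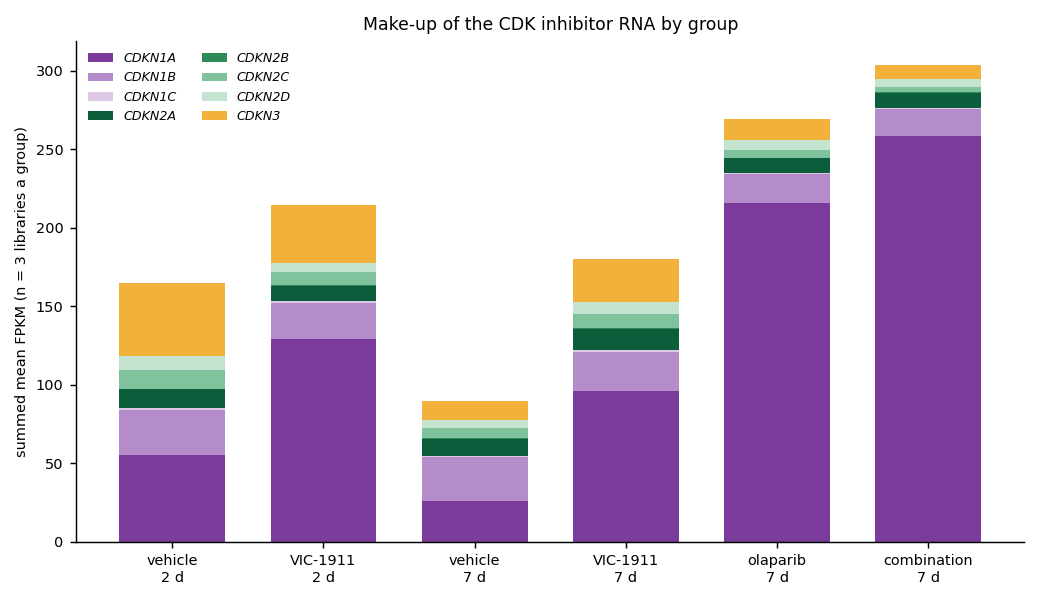
Summed mean FPKM of the 8 CDK inhibitor genes (y axis, linear, from 0) in each group of 3 libraries (x axis), split by gene. CDKN1A makes up 29% of the sum in vehicle and 85.0% with the combination after 7 days.

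The pathways around the inhibitors were described with gene lists, each by its counts and median, to be read beside the shares of all genes given above. Of the p53 target genes other than CDKN1A, 23 of 33 tested were called higher and 2 lower after 2 days of VIC-1911 (median log2 0.36). After 7 days 22, 29 and 29 of 34 were higher and 4, 3 and 3 lower with VIC-1911, olaparib and the combination, with median log2 changes of 0.44, 0.95 and 1.13. The summed FPKM of the list went the other way at 7 days. It was 1802 ± 103 in vehicle, 1256 ± 60.9 with VIC-1911, 1400 ± 87.4 with olaparib and 1418 ± 45 with the combination. After 2 days the sum was 1048 ± 45.5 in vehicle and 1166 ± 39 with VIC-1911. MDM2, which encodes the ligase that degrades p53, rose by log2 0.61 after 2 days (adjusted p = 1.3e-11) and by 0.68, 1.34 and 1.45 after 7 days. BTG2, an antiproliferative gene, and ZMAT3, an RNA-binding p53 target, rose by 2.65 and 2.32 with the combination. Of 20 tested genes that act on p53 or on the CDKN1A promoter, 1 was higher and 2 lower after 2 days (median log2 −0.02), and 7, 7 and 6 were higher and 4, 4 and 4 lower after 7 days of VIC-1911, olaparib and the combination (medians −0.05, 0.04 and 0.07). In that list PPM1D, a phosphatase of the damage response, rose by 1.32 with the combination, and KLF4, a transcription factor of CDKN1A, fell by 1.49.

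The kinases and cyclins that the inhibitors bind were mostly higher than in vehicle after 7 days. Of 11 tested, 2 were higher and 3 lower after 2 days of VIC-1911 (median log2 −0.02), and all 11 were called higher after 7 days of VIC-1911 (median log2 0.94) and of olaparib (0.55), against 6 higher and 1 lower with the combination (0.23). The summed level of this list in vehicle was 458 ± 2.95 FPKM at 2 days and 221 ± 20.2 at 7 days. With VIC-1911 at 7 days the sum was 398 ± 8.24 FPKM. The RB and E2F list and the turnover list, described below, were also lower in vehicle at 7 days (133 and 390 FPKM) than at 2 days (179 and 714). The part of this low vehicle level in the 7-day changes was not tested. CDK1 rose by 1.82, 1.86 and 1.22 on the log2 scale after 7 days, CDK2 by 0.88, 0.69 and 0.23, CDK4 by 0.44, 0.55 and 0.57 and CDK6 by 0.57, 0.51 and 0.51. CCNE1, a cyclin of CDK2, rose by 1.03, 0.72 and 0.64, and CCND1, a cyclin of CDK4, by 0.32, 0.25 and 0.23, while CCNE2 rose with the single drugs (0.94 and 0.79) and was at 0.12 with the combination. All 25 G2 and mitosis genes, CDK1 among them, were higher after 7 days of VIC-1911 (median 1.5) and 22 were higher with olaparib (0.48), but 5 were higher and 6 lower with the combination (0.03), and 2 higher and 11 lower after 2 days of VIC-1911 (−0.14). MKI67, a proliferation marker, was at 1.28, 0.21 and −0.62, and CENPF, a kinetochore gene, at 1.02, 0.13 and −0.56. These 2 genes passed the test in each comparison except CENPF with olaparib (adjusted p = 0.23).

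Of the 17 RB and E2F genes, 1 was higher and 4 lower after 2 days of VIC-1911 (median log2 −0.06), and 13, 10 and 5 were higher and 2, 1 and 2 lower after 7 days of VIC-1911, olaparib and the combination (medians 0.37, 0.26 and 0.17). E2F1, a driver of the G1/S transition, rose by 1.04, 0.73 and 0.29 on the log2 scale, and E2F3 by 0.68, 0.63 and 0.61. RB1 rose with the single drugs (0.29 and 0.23) and was at 0.07 with the combination. RBL2, the gene of p130, fell by 0.55, 0.51 and 0.58, while TFDP2, a partner of E2F, rose by 0.32, 0.59 and 0.66. Of 17 genes for turnover of the inhibitor proteins, 5 were higher and 4 lower after 2 days (median 0.02), and 11, 10 and 7 were higher and 2, 3 and 4 lower after 7 days (0.24, 0.22 and 0.06). SKP2, the receptor that marks p27 for degradation, rose with VIC-1911 (0.44) and olaparib (0.38) and was at 0.14 with the combination (adjusted p = 0.086), and its cofactor CKS1B rose with VIC-1911 (0.50) and fell with the combination (−0.28). CKS2 rose by 1.76, 1.30 and 1.11 and SKP1, a core of the same ligase, by 0.42, 0.51 and 0.64, while CUL4B, the scaffold of another ligase, fell by 0.17, 0.33 and 0.50.

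Regulators of CDKN1B, CDKN1C and INK4 transcription, 22 tested, gave 1 higher and 3 lower after 2 days (median log2 −0.03), and 5, 12 and 12 higher and 6, 3 and 4 lower after 7 days (0.03, 0.15 and 0.17). ID1, a repressor of CDKN2A, rose by 2.05, 3.57 and 4.92 on the log2 scale and by 0.76 after 2 days. MYC rose by 0.36, 0.58 and 0.68. EZH2, the methyltransferase that represses the INK4 locus, fell with olaparib (−0.32) and the combination (−0.75) and was at 0.06 with VIC-1911 after 7 days, but fell with VIC-1911 after 2 days (−0.32, adjusted p = 0.00245). Of 16 genes listed as partners of the inhibitors outside the cell cycle, 1 was higher and 3 lower after 2 days (median −0.07), and 8, 7 and 4 were higher and 1, 1 and 2 lower after 7 days (0.19, 0.10 and 0.10). PCNA, the replication clamp that p21 binds, fell by 0.20 after 2 days and rose by 1.16, 1.03 and 0.78 after 7 days. CIZ1, a p21 partner, fell by 0.34, 0.39 and 0.49, and CDK5R1, an activator of CDK5, rose by 0.51, 0.86 and 0.84. The luminal markers gave 5 higher and 1 lower of 10 after 2 days of VIC-1911 (median log2 0.10). They gave 1, 2 and 2 higher and 6, 7 and 7 lower after 7 days (medians −0.43, −0.53 and −0.62), with FOLH1 at −0.75, −1 and −1.19, KLK2 at −0.57, −0.71 and −0.78 and KLK3 at −0.61, −0.71 and −0.69. Among markers of other cell types, 3 passed the filter after 7 days, and KRT14 was at −0.58, 0.58 and 0.80, COL1A1 at −0.19, 0.28 and 0.43 and SYP at −0.58, −1.27 and −1.22, with all but COL1A1 under VIC-1911 (adjusted p = 0.18) called. After 2 days COL1A1 was called lower (−0.49) and SYP was at −0.52 (adjusted p = 0.42).

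**Figure D5:**
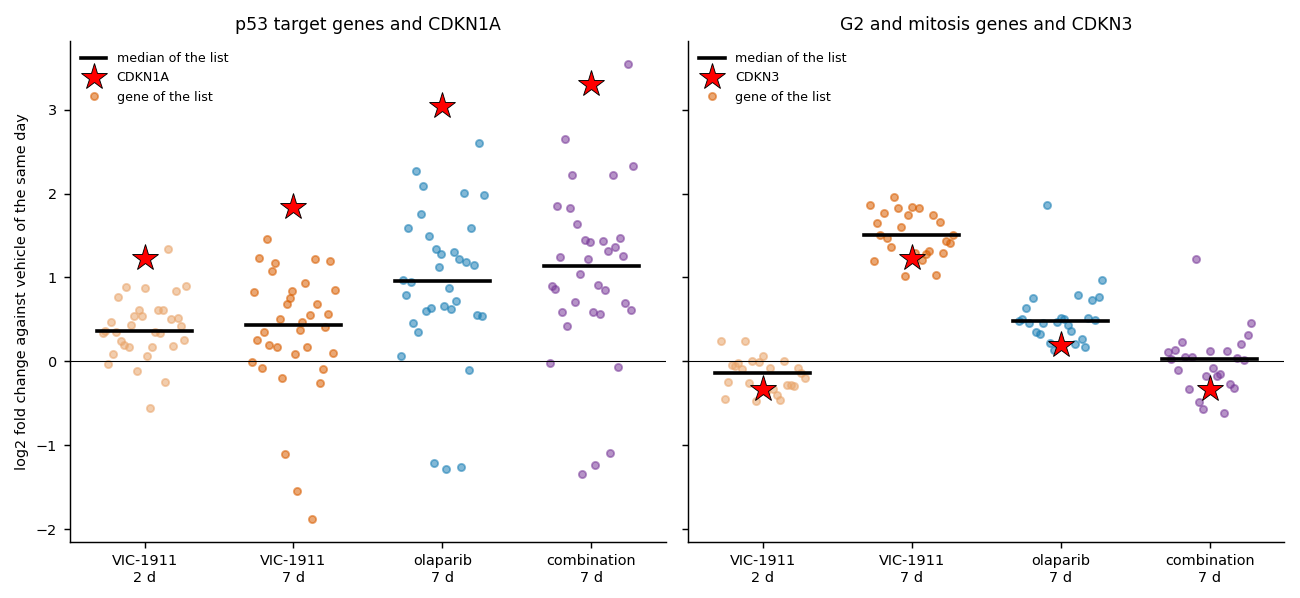
Log2 fold change against vehicle of the same day (y axis) of the p53 target genes (left) and the G2 and mitosis genes (right) for each treatment (x axis), with bars at the median of each list and stars at CDKN1A (left) and CDKN3 (right). The p53 target medians are 0.36, 0.44, 0.95 and 1.13 with CDKN1A above each, and the G2 and mitosis median is highest, at 1.5, with VIC-1911 after 7 days.

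Over the 4 comparisons with vehicle, 12239 genes were ranked by how close their log2 changes were to those of CDKN1A. The nearest were TTR (root mean square difference 0.23), GBP2 (0.24), FAM198B (0.25), TGFB2 (0.32) and NEFL (0.33). TTR was at 0.97, 2.17, 2.84 and 3.35 for VIC-1911 after 2 days and VIC-1911, olaparib and the combination after 7 days, beside 1.23, 1.84, 3.04 and 3.31 for CDKN1A. GBP2 was at 1.23, 1.75, 2.65 and 3.57, and TGFB2, a growth factor, at 1.23, 1.63, 2.98 and 3.92. The likeness covers 18 libraries, and the 3 comparisons of 7 days share their vehicle.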

How the data were processed

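The 18 RNA-seq libraries of C4-2B cells were grouped from their labels. Per the study's methods, the authors trimmed reads with Trimmomatic, aligned them to GRCh38 and quantified genes with STAR, for which the submitters' processing notes name version 2.6.0. They deposited raw counts and FPKM values from an in-house script. The 8 members and the gene lists were chosen with earlier results of these data known.

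The edgeR package (4.0.16, in R 4.3.3) with TMM scaling, glmQLFit and glmQLFTest was used on the counts, in 1 fit a time point. Genes needed 10 counts or more in 3 or more libraries (12241 and 14409 genes). A further fit of 13832 genes covered the vehicle and VIC-1911 libraries of both times. P-values were adjusted by Benjamini-Hochberg over all genes of a comparison, and a gene was called at an adjusted p under 0.05. The code was tested on simulated counts. Alternatives were other scalings, no count filter, a replicate block, DESeq2 1.42.0, limma 3.58.1 on log2(FPKM + 0.1) and log2(FPKM + 1), only the compared groups, and each library left out. Total counts a library, 3245273 to 19684208, set the precision, and FPKM values are given as mean and SD. Besides the members, the 5 genes most like CDKN1A over 4 comparisons are named, and from each list the 3 genes with the lowest p for the combination against vehicle, plus MDM2, SKP2, CKS1B, PCNA, E2F1, RB1, CCND1, CCNE1, CCNE2, CDK1, CDK2, CDK4 and CDK6. A further gene of this rule is not reported here. Promoter windows are from RefSeq (GRCh38.p14), which matched 7 of the 8 members (CDKN1C unmatched).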

Additional observations from a re-analysis of the deposited data

Results flagged for a closer look

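The response to the drugs together differed from the sum of the single responses, by a test of the interaction in edgeR, for 6 of the 8 genes. On the log2 scale the interaction was −1.57 for CDKN1A, −1.75 for CDKN3, −1.22 for CDKN2C, −0.58 for CDKN2D, −0.33 for CDKN2A and 0.69 for CDKN1C, where 44% of all genes passed the same test. The interactions of CDKN2A and CDKN1C were not called by DESeq2 or limma. The response to VIC-1911 differed between 2 and 7 days for 5 genes, by 0.60 for CDKN1A, 1.55 for CDKN3, 1.18 for CDKN2C, 0.71 for CDKN2D and 0.59 for CDKN2A, where 28.8% of all genes passed. The mean vehicle level of each of these 5 genes was lower at 7 than at 2 days, and its part was not tested.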

How the results depend on the processing

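Of the 1147 values of single members under an alternative, 664 of those called stayed called in the same direction, 46 lost the call and 0 changed sign. Of those not called, 403 stayed so, 17 became called and 17 changed sign. With DESeq2, 2 members were called after 2 days of VIC-1911 in place of 5, and 847 genes of all in place of 1798. For the combination against olaparib, limma called 1031 genes with a pseudocount of 0.1 and 1058 with 1, in place of 1657. Without scaling, the difference of the VIC-1911 effect between the times was called positive for 2464 genes and negative for 1572, in place of 2019 and 1958. CDKN1C for the combination against vehicle (log2 −0.02) was at 0.0031 with upper-quartile scaling, 0.0353 without scaling and 0.0031 with limma at a pseudocount of 0.1, and between −0.16 and 0.18 with a library left out. CDKN2A for the combination against olaparib (log2 0.01) was at −0.00075 with no filter, at −0.0033 with the replicate block and between −0.076 and 0.071 with a library left out. With a library left out, CDKN2B ranged from −0.055 to 0.71 for VIC-1911 after 7 days, from −0.21 to 0.55 for the combination against vehicle, from −0.31 to 0.037 for the combination against VIC-1911 and from −0.12 to 0.64 for the interaction, and CDKN1B from −0.0071 to 0.086 for the difference between times. The causes were not tested. Deviations of libraries with the same replicate number correlated weakly (r between −0.00287 and 0.0438 after 2 days and −0.0355 and 0.111 after 7 days). For different numbers r was between −0.0318 and 0.0284 and between −0.0833 and 0.0982. The medians were 0.0015 and 0.017 for the same number and −0.0171 and −0.0098 for different numbers, so the check does not settle whether libraries were paired. With the replicate block 2 calls were lost, those of CDKN1C with VIC-1911 after 2 days (log2 −0.67, adjusted p = 0.0550) and 7 days (log2 −0.40, adjusted p = 0.0501). In these comparisons 4 and 6 members were called in place of 5 and 7. Of all genes, 1838 and 7645 were called there with the block, in place of 1798 and 7551. Depth limits CDKN2B and CDKN1C, the members with the fewest counts.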
